A study of Mus musculus with 2 samples.

Results

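The Spata genes are a set of mouse genes that share the symbol stem Spata, for spermatogenesis associated, followed by a number. Members were the protein-coding genes of the deposited gene tables whose GENCODE M21 symbol begins in that way, and 28 of 21474 protein-coding genes qualified. M21 lists 29 protein-coding symbols of this form, and 1 of them was not analysed here. The symbols were given for a link with spermatogenesis, so a high level in testis is not independent of the naming. Apart from the Spata31 genes and the pair Spata2 and Spata2l, the members are not one gene family and share no common structure.

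Spermatogenesis turns dividing spermatogonia into meiotic spermatocytes, and these into haploid spermatids that are remodelled into sperm. Spermatids build an acrosome from the Golgi apparatus, condense the nucleus, join head to tail through a connecting piece and wrap mitochondria around the midpiece. Several Spata genes act in these steps, while others encode proteins of general cell functions such as ubiquitin signalling, mitochondrial quality control and ribosome maturation.

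Polyadenylated RNA longer than 200 nucleotides, depleted of ribosomal RNA and with spike-in RNA added, was sequenced from whole testis of male C57BL/6J mice aged 8 weeks, in 2 stranded libraries with reads of 76 nucleotides, called replicate 1 and replicate 2. The labels speak of littermates but give both libraries one donor identifier, so they may stem from one animal, and their spread may be technical. No treatment or genotype was compared, so no test between groups was made. In whole tissue, fewer cells of a type and less RNA per cell cannot be told apart.

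The libraries held 50374324 expected counts in replicate 1 and 52788929 in replicate 2, of which the Spata genes took 407633 and 408022. Markers of spermatids were all detected, 8 of 8, with a summed level of 72441 TPM (transcript abundance scaled for transcript length and library size) in replicate 1 and 68676 TPM in replicate 2. That gap was carried by Prm1 at 17056 and 13121 TPM, while the median of the 8 was 4314 and 4742 TPM. All 6 markers of meiotic spermatocytes were detected, at a summed 318 and 380 TPM. Most of that sum was Syce1 at 220 and 247 TPM, while the median of the 6 was 15.1 and 21.6 TPM. Replicate 1 stood apart by RNA of another tissue: the 8 markers of epididymis, the duct next to the testis, summed to 867 TPM in replicate 1 and 0.47 TPM in replicate 2. Of the 8, 6 reached 1 TPM in replicate 1 and none in replicate 2, where Adam7, Lcn8, Defb28, Ltf and Wfdc15b were listed at 0; Rnase9 and Lcn8 were at 0.90 and 0.06 TPM in replicate 1. The 4 peritubular markers summed to 278 TPM in replicate 1 and 135 TPM in replicate 2. The 3 skeletal muscle markers summed to 18.8 TPM in replicate 1 and 1.88 TPM in replicate 2. Acta1 had 13.3 and 0.66 TPM and Ckm 5.47 and 1.20 TPM, while Myh4 was near 0 in both, at 0.03 and 0.02 TPM. Sertoli markers summed to 1463 TPM in replicate 1 and 1870 TPM in replicate 2. Most of that sum was Clu at 1193 and 1524 TPM, while the median of the 5 was 115 and 145 TPM. The 5 spermatogonia markers summed to 87.5 and 96.0 TPM, and the 4 macrophage markers to 26.6 and 24.8 TPM. Leydig markers summed to 4486 and 5558 TPM, a gap carried by Insl3 at 4187 and 5278 TPM, while the median of the 5 was 80.5 and 80.9 TPM.

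All 28 Spata genes reached at least 1 TPM in both libraries, the threshold used here for detection, against 62.1% of all protein-coding genes. Of the 28, 17 reached at least 100 TPM in both, which is 60.7% of them, against 7.38% of all protein-coding genes. The median over members of the mean of both libraries was 134 TPM. Their library medians were 131 TPM in replicate 1 and 125 TPM in replicate 2 (SD 4.36, n = 2). Over all protein-coding genes the median of the means was 3.58 TPM, with library medians of 3.56 and 3.52 TPM (SD 0.0283). Among the 13340 detected protein-coding genes the median of the means was 12.9 TPM, and 26 members lay above it. The library medians of those genes were 12.6 and 13.0 TPM (SD 0.265). As a share of protein-coding TPM outside the mitochondrial genome, the members held 0.997% in replicate 1 and 1.01% in replicate 2, while they were 0.130% of those genes.

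The members spread widely around that median. The highest mean level was 383-fold the lowest, and the 5 most abundant genes, Spata3, Spata20, Spata6, Spata46 and Spata33, held 55.5% of all member TPM in replicate 1 and 52.4% in replicate 2. The 14 least abundant held 8.75% and 9.63%. All 28 lie on autosomes, on 12 chromosomes, with 6 on chromosome 13 and 4 on chromosome 1.

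**Figure D1:**
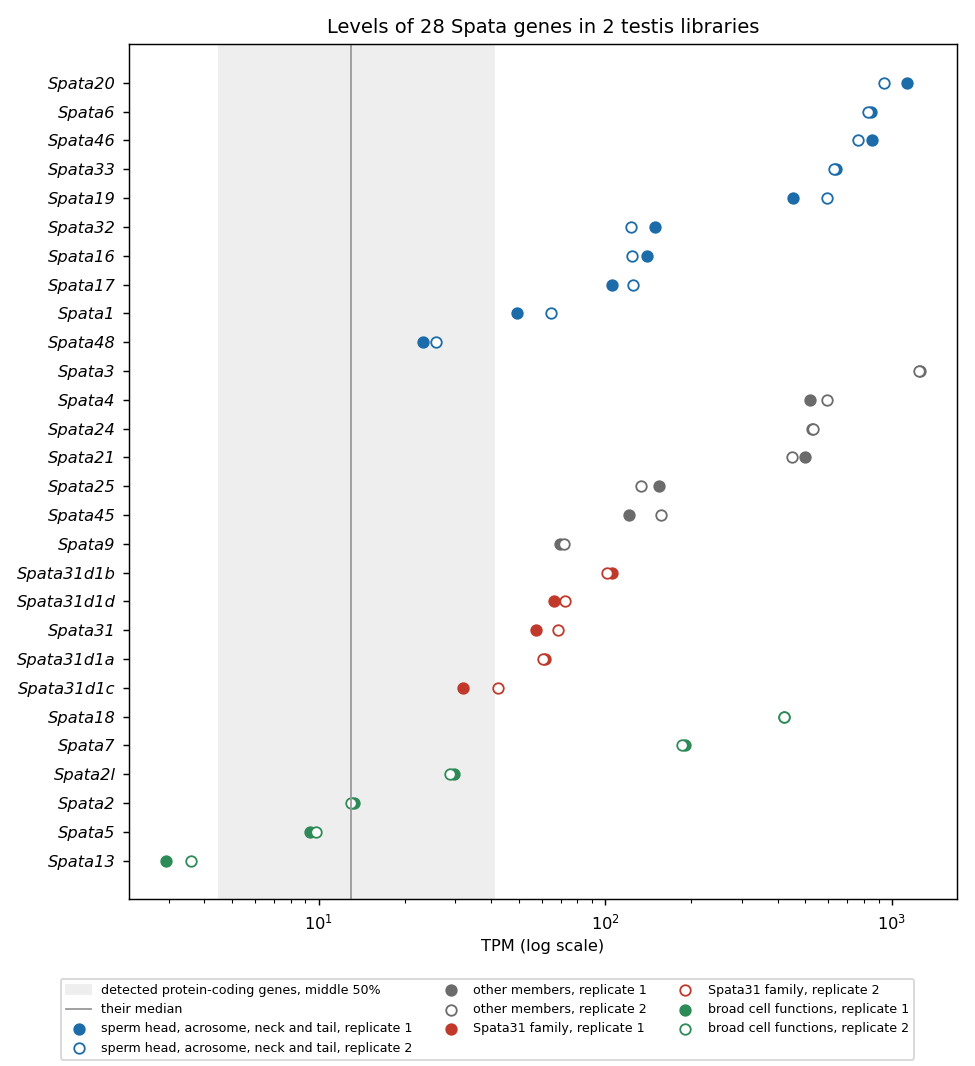
Level of each Spata gene in TPM (log axis), filled points for replicate 1 and open points for replicate 2, coloured by role; the grey band is the middle 50% of detected protein-coding genes, 4.51 to 41.1 TPM, and the line is their median, 12.9 TPM. Of the 10 genes linked to sperm structures, all but Spata48 sit right of the band, while Spata2, Spata5 and Spata13 lie at or below 13.3 TPM.

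The 10 genes linked to parts of the sperm cell had a median of 302 TPM in replicate 1 and 360 TPM in replicate 2. They held 51.6% and 50.2% of the TPM of all Spata genes. Within the group the levels ran from 24.4 to 1038 TPM (means of both libraries).

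Spata20, which encodes a protein with a thioredoxin-like domain, had 1135 TPM in replicate 1 and 941 TPM in replicate 2, from 106504 and 92882 expected counts, the most counts of any member. Spata6, needed for the connecting piece at the sperm neck, had 851 TPM in replicate 1 and 828 TPM in replicate 2. Spata46, a protein of the sperm head, had 856 TPM in replicate 1 and 763 TPM in replicate 2. These 3 genes were the highest of the group in both libraries.

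Genes of the sperm mitochondria came next. Spata33, which tethers the phosphatase calcineurin to mitochondria of the sperm midpiece, had 640 TPM in replicate 1 and 630 TPM in replicate 2. Spata19, a protein of the mitochondrial sheath, had 454 TPM in replicate 1 and 596 TPM in replicate 2, so replicate 2 was the higher library here. The calcineurin subunit genes Ppp3cc and Ppp3r2 had 79.1 and 120 TPM in replicate 1 and 87.4 and 132 TPM in replicate 2. Vdac2, for the mitochondrial channel that Spata33 binds, had 381 TPM in replicate 1 and 348 TPM in replicate 2. Spata33 was thus the most abundant of these 4 genes in both libraries.

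Genes of the acrosome and of less settled sperm roles were lower. Spata32, an acrosome-associated protein, had 150 TPM in replicate 1 and 123 TPM in replicate 2. Spata16, a Golgi protein of acrosome formation whose human gene is mutated in round-headed sperm, had 141 TPM in replicate 1 and 125 TPM in replicate 2. Spata17, with IQ motifs of the kind that bind calmodulin, had 106 TPM in replicate 1 and 125 TPM in replicate 2. Below these genes, Spata1 had 49.4 TPM in replicate 1 and 65.0 TPM in replicate 2. Spata48 had 23.2 TPM in replicate 1 and 25.7 TPM in replicate 2, the lowest of the 10.

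Spata32 and Spata48 overlap genes that were themselves expressed. Spata32 lies on the same strand as 1700023F06Rik, at 414 TPM in replicate 1 and 390 TPM in replicate 2, and Spata48 lies opposite Zpbp, an acrosome gene, at 51.5 and 59.5 TPM. In all, 12 members overlap another gene of the deposited tables, 9 overlap a detected one, and 3 overlap a detected one on the same strand (Spata33, Spata32 and Spata17). The libraries were stranded per the labels, but the sources used here do not say whether the counting used strand. Reads from overlapping parts may thus be split between the genes, which was not tested. The expected counts of Spata32, Spata33, Spata17 and Spata48 were whole numbers in both libraries, within 0.005.

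The 7 members outside these roles included the most abundant Spata gene. Spata3 had 1254 TPM in replicate 1 and 1249 TPM in replicate 2, at rank 62 of all protein-coding genes by mean level, and was the only member above 1000 TPM in both libraries. Spata4 had 519 TPM in replicate 1 and 596 TPM in replicate 2. Spata24, a partner of the TBP-like factor Tbpl1, had 527 TPM in replicate 1 and 530 TPM in replicate 2, against 151 and 160 TPM for Tbpl1 itself. Spata21, an EF-hand protein, had 499 TPM in replicate 1 and 450 TPM in replicate 2.

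The other 3 of this group were lower. Spata25 had 154 TPM in replicate 1 and 133 TPM in replicate 2, and Spata45 had 121 and 157 TPM. Spata9 had 69.6 TPM in replicate 1 and 72.1 TPM in replicate 2. The group median was 499 TPM in replicate 1 and 450 TPM in replicate 2, the highest of the 4 role groups.

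The Spata31 family is a set of related genes, and its 5 members here all lie on chromosome 13. Their levels ran from 37.1 to 104 TPM (means of both libraries). Spata31d1b had 106 TPM in replicate 1 and 101 TPM in replicate 2. Spata31d1d had 66.5 and 72.5 TPM, Spata31 had 57.2 and 68.4 TPM, and Spata31d1a had 61.6 and 60.6 TPM. Spata31d1c was the lowest, at 31.8 TPM in replicate 1 and 42.4 TPM in replicate 2. Together the family held 3.78% of member TPM in replicate 1 and 4.10% in replicate 2, less than Spata33 alone.

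Spata31d1a and Spata31d1b stand head to head, 1953 bases apart on opposite strands, and Spata31d1b and Spata31d1d are 6629 bases apart. Coding sequences of 2559 to 4083 bases were aligned globally, and gap columns were counted as not identical. On that measure Spata31d1a and Spata31d1b were 75.6% identical, while the other family pairs were 39.9 to 50.7% identical. Over columns without gaps the values were 79.6% for this pair and 60.6 to 67.8% for the others. The likeness was uneven along the 2 genes. Over 4152 aligned columns, the first 100 columns were identical, bins between columns 201 and 2500 fell mostly under 70% identity, and one run of 680 bases near the end was identical in both. The sequences below, from the GENCODE M21 transcripts on GRCm38 (mm10), show how alike the genes are over the length of 1 read. The first pair is the first 76 coding bases and is the same in both genes, so a read of these letters alone cannot be assigned to one of them. The second pair crosses the edge of the identical run, and the capital letter marks the only base of that window at which the 2 differ.
Spata31d1a start (chr13:59706075-59706150, minus strand): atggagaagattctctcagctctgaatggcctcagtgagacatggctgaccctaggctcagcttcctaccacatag
Spata31d1b start (chr13:59712315-59712390, plus strand): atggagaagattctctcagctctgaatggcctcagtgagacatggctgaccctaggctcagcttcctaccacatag
Spata31d1a edge (chr13:59700987-59701062, minus strand): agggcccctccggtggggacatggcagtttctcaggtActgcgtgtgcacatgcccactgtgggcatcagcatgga
Spata31d1b edge (chr13:59718314-59718389, plus strand): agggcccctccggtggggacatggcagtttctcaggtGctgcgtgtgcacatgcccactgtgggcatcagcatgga

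**Figure D2:**
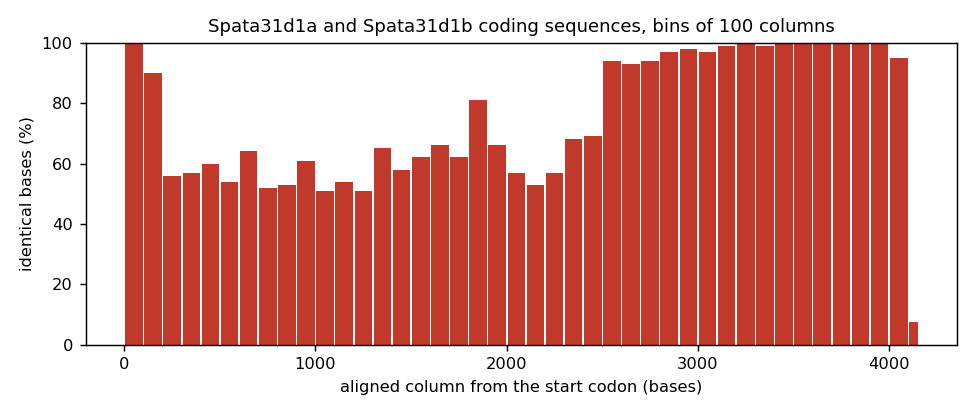
Identity of the aligned Spata31d1a and Spata31d1b coding sequences in bins of 100 columns, by distance from the start codon, with gap columns counted as not identical. Of 42 bins, 10 were at least 99% identical and 23 were under 70%; the last, short bin was 7.69% identical.

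Of all 76-base windows of the leading transcripts, 907 were shared between these 2 genes, 21.7% of those of Spata31d1a and 21.5% of those of Spata31d1b. Among the 28 leading transcripts, 25 shared no window with a transcript of another M21 gene. The remaining one was Spata24, which shared 54.3% of its windows with an overlapping gene model of M21 that was not used here and is not among the overlaps counted above. Of the 28 leading transcripts, 20 had the same length in M21 as in the deposited tables. Spata31d1a (4261 and 4277 bases), Spata31d1b (4287 and 4281) and Spata24 (710 and 709) did not. The window shares thus hold for the M21 sequences, which can differ from the models counted. The deposited posterior SD of the count, which reflects how surely reads were assigned, was 0.276% of the count in replicate 1 and 0.266% in replicate 2 for Spata31d1a, and 0.161% and 0.159% for Spata31d1b. It was below 0.005% for the other 26 members. Spata31d1b was the higher of the pair in both libraries, with the limit that shared reads had to be divided between them.

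The 6 members with broad cell functions had the lowest median, 21.5 TPM in replicate 1 and 20.8 TPM in replicate 2, and 2 of them stood far above it. Spata18, known as Mieap for its part in mitochondrial quality control, had 421 TPM in replicate 1 and 423 TPM in replicate 2. Its partners of that process Bnip3 and Bnip3l had 7.09 and 39.0 TPM in replicate 1 and 7.63 and 50.9 TPM in replicate 2. Spata7, a protein of the photoreceptor connecting cilium whose human gene is mutated in retinal disease, had 189 TPM in replicate 1 and 185 TPM in replicate 2. Its partner Rpgrip1 was higher, at 345 TPM in replicate 1 and 352 TPM in replicate 2.

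The other 4 were lower. Spata2, which links the deubiquitinase Cyld to the linear ubiquitin ligase complex, had 13.3 TPM in replicate 1 and 12.9 TPM in replicate 2. Its paralog Spata2l had 29.7 TPM in replicate 1 and 28.7 TPM in replicate 2, above Spata2 in both libraries, and overlaps an antisense gene, 4933417D19Rik, at 89.9 and 71.0 TPM. Cyld had 2.15 and 2.24 TPM, while the ligase subunits Rnf31, Rbck1 and Sharpin had 7.91, 64.0 and 47.1 TPM in replicate 1 and 8.01, 65.8 and 42.3 TPM in replicate 2. Spata5, an AAA ATPase of ribosome maturation, had 9.34 TPM in replicate 1 and 9.78 TPM in replicate 2. Spata13, an exchange factor for Rac and Cdc42, had 2.94 TPM in replicate 1 and 3.60 TPM in replicate 2 and was the lowest member. All 14 partner genes listed for the Spata proteins were detected in both libraries, against 62.1% of all protein-coding genes. Their median was 74.1 TPM. They were picked from general knowledge of the proteins. Those not given above were Sun5 and Spag4, listed for Spata20, and Cinp, listed for Spata5. Sun5 had 226 and 235 TPM, Spag4 752 and 745 TPM, and Cinp 4.28 and 4.27 TPM in replicates 1 and 2.

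Among the member promoters searched, the full cAMP response element was found in Spata7 alone. Shorter or inexact forms of it were not searched. The letters TGACGTCA, searched on both strands in windows from 250 bases before to 50 bases after the RefSeq start, occurred in 1 of 26 members with a window, 3.85%, and in 2.54% of 17491 protein-coding genes. The 60 bases that end with the Spata7 start site (RefSeq, GRCm38.p6, chr12:98628083-98628142, plus strand) are shown because the element lies at its very end, in capitals.
Spata7 promoter: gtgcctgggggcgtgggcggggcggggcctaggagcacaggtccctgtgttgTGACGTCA
An X-box core of 10 letters, of the kind RFX factors bind, occurred in Spata33 alone, 3.85% of members against 0.555% of genes. TATAAA occurred in Spata4 and Spata48, 7.69% of members against 14.8% of genes. None of the 3 motifs contains another, and a match describes the letters only.

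The tables hold 101 transcripts of the 28 genes. A single transcript was listed for 11 members, all Spata31 genes among them, and 17 had several, up to 14 for Spata6. The leading transcript, the one with the highest mean TPM, held under 60% of the gene in 6 of those 17 members, 35.3%, against 39.2% of detected protein-coding genes with several transcripts. These were Spata3, Spata5, Spata6, Spata13, Spata17 and Spata48, by the mean of both libraries; Spata16 was under 60% in replicate 1 alone. Transcript shares are the authors' estimates and depend on how reads common to several transcripts were divided.

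Spata6 had the widest gap between shares of molecules and shares of reads. Its full-length transcript Spata6-201, of 2466 nucleotides and 488 codons, held 23.6% of the gene's TPM in replicate 1 and 28.6% in replicate 2, but 55.1% and 57.8% of its expected counts. The short Spata6-202, of 478 nucleotides and with an end marked as incomplete in M21, held 31.2% of TPM in replicate 1 and 19.1% in replicate 2, from 8.87% and 4.65% of the counts. Transcripts annotated as coding made up 56.8% of the gene's TPM in replicate 1 and 49.7% in replicate 2. The gene-level TPM of Spata6 thus counts many short models, and the full-length transcript alone stood at 201 TPM in replicate 1 and 237 TPM in replicate 2.

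Spata17 showed the same feature. By mean TPM its leading transcript was Spata17-204, a non-coding model of 2 exons and 593 nucleotides, with 25.2% of TPM in replicate 1 and 33.2% in replicate 2. In replicate 1 alone the incomplete coding model Spata17-207 was higher, at 27.6%, against 16.8% in replicate 2. The complete Spata17-205 held 21.2% of TPM in replicate 1 and 20.5% in replicate 2, but 43.2% and 42.2% of the expected counts. Spata17 was the only member whose leading transcript was not annotated as coding.

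Spata3 was split over coding transcripts that differ at a pair of sites. The first is a choice of splice acceptor 3 bases apart. Both forms are shown, with the 3 added bases in capitals; the coordinates span the intron.
Spata3-211 junction (chr1:86022335-86024344, plus strand): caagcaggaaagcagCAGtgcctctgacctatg
Spata3-209 junction (chr1:86022335-86024344, plus strand): caagcaggaaagcagtgcctctgacctatg
Transcripts with the 3 bases held 42.4% of the TPM of those that use the junction in replicate 1 and 40.2% in replicate 2. Those without held 57.6% and 59.8%. At the end of the next exon, transcripts either join a further exon or read on into the intron, and the capitals mark the bases that follow.
Spata3-211 exon end (chr1:86024487-86026428, plus strand): tctcaccttctacagAAAACCGTCAAGGAA
Spata3-209 exon end (chr1:86024487-86024516, plus strand): tctcaccttctacagGTTCCGCATGAACGG
Joining the further exon, as in Spata3-211 with 193 codons, made up 63.1% in replicate 1 and 52.9% in replicate 2. Reading on, as in Spata3-209 with 170 codons, made up 36.9% and 47.1%. The leading transcript was Spata3-211 in replicate 1, at 34.1% of the gene, and Spata3-209 in replicate 2, at 35.6%.

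Spata5 has an acceptor pair of the same spacing, which M21 tags as such for Spata5-201. The 3 added bases are again in capitals.
Spata5-202 junction (chr3:37420486-37424528, plus strand): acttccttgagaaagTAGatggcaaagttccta
Spata5-201 junction (chr3:37420486-37424528, plus strand): acttccttgagaaagatggcaaagttccta
Of the TPM of transcripts that use the junction, the longer form held 54.6% in replicate 1 and 50.2% in replicate 2, at 3.42 and 3.91 TPM. Of the whole gene's TPM, Spata5-202 held 36.6% in replicate 1 and 39.9% in replicate 2. A retained-intron model, Spata5-204, held 25.4% of the gene's TPM in replicate 1 and 13.1% in replicate 2. It did so from 4.78% and 2.14% of the gene's expected counts.

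Spata16 has 2 transcripts that part at the end of an exon. Spata16-201 joins a last exon and encodes 571 codons, and Spata16-202 reads on into the intron to a stop codon and encodes 534 codons. The bases after the exon are in capitals.
Spata16-201 exon end (chr3:26927375-26982931, plus strand): aatacaatccaaaagGTCGGACGAATA
Spata16-202 exon end (chr3:26927375-26927401, plus strand): aatacaatccaaaagGTAAAATTCTGA
Spata16-201 held 58.5% of the gene's TPM in replicate 1 and 67.5% in replicate 2, so it led in both libraries.

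The rest were simpler. Spata48 was split almost evenly, with 50.6% in Spata48-202 in replicate 1 and 53.9% in replicate 2. In Spata13 the leading Spata13-210 held 41.2% in replicate 1 and 31.5% in replicate 2, at 1.21 and 1.13 TPM. In a pair of genes with a dominant transcript, chosen after their values were seen, the retained-intron model Spata21-202 held 2.05% of Spata21 in replicate 1 and 9.99% in replicate 2, and Spata7-201 held 9.03% and 18.1% of Spata7.

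**Figure D3:**
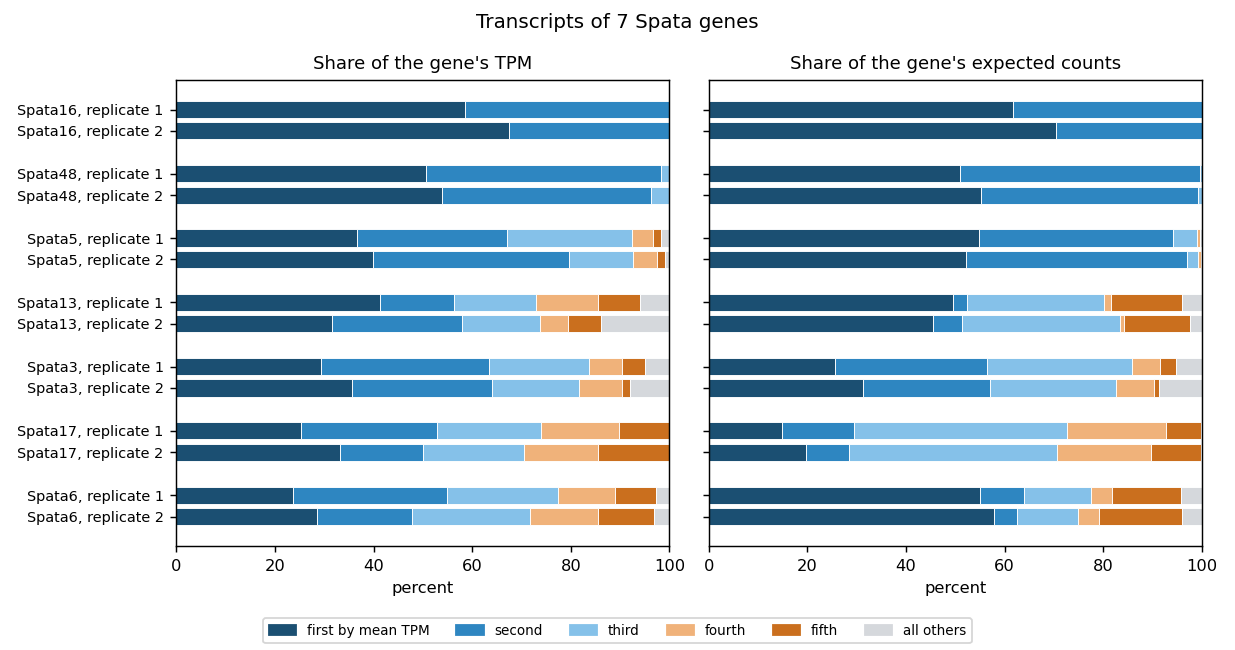
Shares of the transcripts of 7 Spata genes in each library, in percent of the gene's TPM (left) and of its expected counts (right), stacked by mean TPM. The first transcript of Spata6, full-length Spata6-201, takes 23.6% and 28.6% of TPM on the left but 55.1% and 57.8% of counts on the right.

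The 2 libraries gave close levels for the Spata genes, as they did for most other genes with as many counts. With counts scaled by TMM, a normalisation for library composition, none of the 28 was more than 2-fold apart, against 3.49% of the 16355 protein-coding genes that had 10 or more counts in each library. Members had 512 to 106504 counts, and among the 8907 protein-coding genes that had 512 or more in each library 0.236% were more than 2-fold apart. None lay beyond 0.5 on the log2 scale, against 14.2% of the 16355 genes, many of which had fewer counts. That share was not taken over the 8907 genes with 512 or more counts. The median size of the log2 ratio was 0.16 over members, 0.19 over all those genes and 0.14 over the 8907 well-counted ones. Of the members, 14 were higher in replicate 1 and 14 in replicate 2.

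The differences still exceeded counting error for most members, as they did for most well-counted genes. The 95% counting interval lay above 0, higher in replicate 1, for 11 members, against 27.6% of genes and 33.4% of the 8907 well-counted ones. It lay below 0 for 10, against 27.5% and 34.5%. It held 0 for 7. In either direction the interval excluded 0 for 75% of members, against 55.1% of those genes and 67.8% of the 8907 well-counted ones, whose intervals are narrower. The deposited TPM intervals of the 2 libraries did not overlap for 15 members, or 53.6%, against 38.2% of detected protein-coding genes, many of which had fewer counts. With 1 library on each side the 95% counting intervals cover counting error alone and no p-value was computed. The deposited TPM intervals are the authors' estimates within each library, at a level the headers omit.

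**Figure D4:**
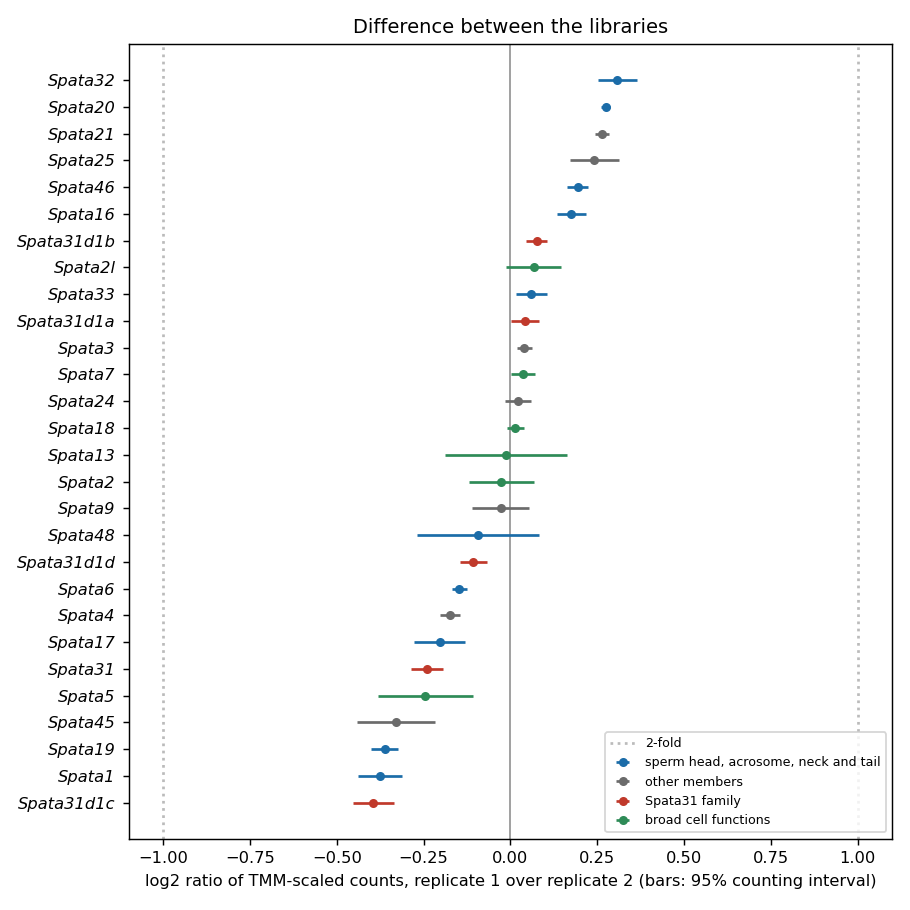
Log2 ratio of TMM-scaled expected counts, replicate 1 over replicate 2, for each Spata gene, with 95% counting intervals and dotted lines at 2-fold. The points run from -0.39 for Spata31d1c to 0.31 for Spata32, all inside the dotted lines.

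Spata32 had the highest ratio, 0.31 (interval 0.25 to 0.36), followed by Spata20 at 0.27 (0.26 to 0.29) and Spata21 at 0.26 (0.24 to 0.28). On deposited TPM the ratio of Spata21 was 0.15, below Spata25 at 0.21, Spata16 at 0.17 and Spata46 at 0.17. The lowest ratios were those of Spata31d1c at -0.39 (-0.45 to -0.34), Spata1 at -0.38 (-0.44 to -0.31) and Spata19 at -0.36 (-0.40 to -0.32). The intervals of Spata48, Spata13, Spata9, Spata2, Spata2l, Spata24 and Spata18 held 0. For Spata6 the measures differed in sign: the scaled counts gave -0.15 (-0.17 to -0.13) and the deposited TPM gave 0.038. The deposited gene length, a mean over transcripts weighted by their TPM, was 1173 nucleotides in replicate 1 and 1323 in replicate 2. The summed levels of the epididymis, peritubular, skeletal muscle, macrophage and spermatid markers were higher in replicate 1 as given above. Those of the meiotic, spermatogonia, Sertoli and Leydig markers were higher in replicate 2. The part of those tissues and cell types in these ratios was not tested.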

How the data were processed

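Poly(A) RNA of testis was measured in 2 libraries, and their gene and transcript tables on mm10 were used; the readme names annotation M4. Per the file headers, expected counts are the authors' estimates of reads for each gene or transcript, with no normalisation. TPM and FPKM are the authors' rescaling of them for length and library size, per the file headers. The authors also deposited posterior means, TPM interval bounds whose level the headers omit, and each transcript's percent of its gene. Aligner and quantifier: not given in the sources used here. Contig and junction files on mm9 were not used.

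Symbols, types and exons came from GENCODE M21 (GRCm38) by identifier without version. The members and lists were chosen with earlier results of these data known. Every member is named, ordered by role and then mean TPM. Transcripts are described where the leading one held under 60% in either library, differed between libraries or was not coding; those of Spata7 and Spata21 were added after their values were seen. Detection meant at least 1 TPM in both libraries. Ratios used expected counts rounded to whole numbers, edgeR 4.0.16 TMM factors (R 4.3.3) and a minimum of 10 counts in both libraries. They were given with 95% exact binomial counting intervals. The steps were run on simulated counts with known ratios and counting error alone, which cannot show how they behave under other variation. DESeq2 1.42.0 size factors, posterior means, other thresholds and leaving out a library were tried as alternatives. No molecular identifiers are named in the labels, so the counting intervals of the ratios cover counting error only. Coding sequences were aligned with Biopython 1.88 in Python 3.11.15. Protein sequences were not used here.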

Additional observations from a re-analysis of the deposited data

How the results depend on the processing

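Detection, the absence of members more than 2-fold apart, the median log2 ratio and the count of members with a leading transcript under 60% stayed within 1.5 times or kept their direction under each alternative run for them; at a detection limit of 5 TPM, 27 members passed. The median level of 134 TPM was 144 TPM without the Spata31 family, and 125 to 131 TPM when either library was left out. The members' share of protein-coding TPM was 1.00% over both libraries, and 0.859% as a share of expected counts, which are not divided by length. The log2 ratio of Spata6 was -0.15 on scaled counts and 0.038 on deposited TPM. Deposited TPM also gave -0.066 for Spata5 in place of -0.25, -0.29 for Spata13 in place of -0.01, 0.15 for Spata21 in place of 0.26 and 0.0058 for Spata3 in place of 0.04. The ratios of Spata24, Spata18 and Spata2, whose counting intervals held 0, changed sign to -0.0075, -0.0042 and 0.041. Spata13 and Spata5, with the lowest levels, were at 3.27 and 9.56 TPM, or 3.84 and 10.6 TPM as posterior means. No paired analysis was possible because both libraries belong to 1 group. The depth of 512 counts for the least counted member leaves log2 ratios of Spata48 and Spata13 with intervals of -0.27 to 0.08 and -0.19 to 0.16. Identity between protein sequences was not run.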

Other observations

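Genes that once carried a Spata symbol or are related to a member were also measured. Ints13, a subunit of the Integrator complex once named Spata30, had 30.7 TPM in replicate 1 and 36.5 TPM in replicate 2. Maats1, once Spata26, had 23.8 and 24.5 TPM, and Alkbh7, once Spata11, had 31.7 and 26.2 TPM. The M21 gene 4430402I18Rik, the relative of Spata6 also called Spata6l, had 169 TPM in replicate 1 and 201 TPM in replicate 2, below Spata6 in both. Spata5l1, the relative of Spata5, is annotated as a processed transcript in M21 and had 3.63 TPM in replicate 1 and 2.89 TPM in replicate 2.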
